A study of Mus musculus with 71 samples.

Results

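A group of 10 genes that mark the stem cell zone of the intestinal crypt or act in its Wnt signalling was followed in the bulk RNA-sequencing of Btnl2-KO and WT mice. They are Lgr5, Olfm4, Ascl2, Smoc2, Axin2, Msi1, Wnt3, Sox9, Rnf43, and Znrf3, taken as a fixed list by name, and they make up 10 of the 24475 gene identifiers in the 3 bulk tables. The tables hold 65 libraries from female C57BL/6 mice: 22 of sorted γδ intraepithelial lymphocytes (IELs), 16 of intestinal epithelial cells (IECs), and 27 of whole tissue. In Btnl2-KO mice a LacZ cassette inserted at the start codon makes the allele null, and the WT mice were littermates. Btnl2 itself encodes a butyrophilin-like protein.

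Whole tissue came from the small intestine (7 WT and 7 Btnl2-KO libraries) and the colon (6 WT and 7 Btnl2-KO libraries) of mice that the labels call young without an age. IECs came from the duodenum (3 WT, 2 Btnl2-KO), jejunum (3 WT, 3 Btnl2-KO), and ileum (2 WT, 3 Btnl2-KO) of mice labelled 7 weeks old, with the segments cut as 3 equal lengths of the small intestine. They are the upper layer of a density gradient run after the epithelium had been stripped with EDTA, and were not sorted, so villus and crypt cells can be mixed in any proportion. IELs came from the duodenum (4 WT, 3 Btnl2-KO), jejunum (4 WT, 4 Btnl2-KO), and ileum (4 WT, 3 Btnl2-KO) of mice labelled 10 weeks old, were sorted as CD45+ TCRβ- TCRγδ+ cells, and were pooled from 2 mice per library. Levels are given as CPM, which are counts per gene scaled to library size with TMM within one table, and levels in different tables are set side by side without a test.

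The crypt is the pocket of epithelium from whose base the intestinal lining is renewed. Stem cells there lie among Paneth cells, and Wnt ligands signal through Frizzled receptors and β-catenin to keep them dividing. LGR5 is a receptor for R-spondins, which keep the ubiquitin ligases RNF43 and ZNRF3 from removing Frizzled receptors, and ASCL2 is the transcription factor that sets the stem cell programme. OLFM4 is a secreted protein of small intestinal stem cells and SMOC2 a secreted matrix protein, MSI1 binds RNA, AXIN2 is a Wnt target that feeds back on β-catenin, SOX9 is a transcription factor of crypt and Paneth cells, and WNT3 is the Wnt ligand that Paneth cells make.

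In the GRCm38 annotation, 5 of the 10 genes lie on chromosome 11: Axin2 (chr11:108920349-108950783), Wnt3 (chr11:103774150-103817957), Sox9 (chr11:112782224-112787760), and Rnf43 (chr11:87662722-87735539) on the plus strand and Znrf3 (chr11:5276324-5444847) on the minus strand. Olfm4 lies at chr14:79984081-80023139 on the plus strand, and 153 bases of one of its exons overlap in position with the noncoding gene Gm6999. Whether reads there can be told apart by strand was not checked. RefSeq promoter sequence of build GRCm38.p6 was at hand for 5 of the 10 genes. The stretches upstream of Olfm4 and Wnt3 are shown because these are the genes that were near 0 in the colon, and each ends at the last base before the first exon annotated there. Both are on the plus strand, at chr14:80000052-80000250 (Olfm4, inside an intron of a longer noncoding Olfm4 transcript) and chr11:103773925-103774149 (Wnt3, intergenic):
Olfm4 promoter: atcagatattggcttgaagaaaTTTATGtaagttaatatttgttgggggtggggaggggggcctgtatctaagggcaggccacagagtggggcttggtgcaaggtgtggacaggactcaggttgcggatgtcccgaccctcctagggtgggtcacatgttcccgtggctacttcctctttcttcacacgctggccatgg
Wnt3 promoter: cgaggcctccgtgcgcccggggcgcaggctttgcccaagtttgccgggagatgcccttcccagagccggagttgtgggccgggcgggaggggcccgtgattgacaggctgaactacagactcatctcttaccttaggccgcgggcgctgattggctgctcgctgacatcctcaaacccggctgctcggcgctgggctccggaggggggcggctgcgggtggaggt

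Capitals mark the only match in these stretches to the letters searched for on both strands, which were 4 in number. TCF factors bind CTTTGA and also, in a variant of that motif, bind CTTTGT. The zinc-finger factors of the endoderm bind AGATAA, while caudal-type factors are known to bind CATAAA. The match is to CATAAA on the minus strand, and 10.8% of all 32851 promoters hold that motif within 250 bases of the start. That window is longer than the stretches shown, which are 199 bases (Olfm4) and 225 bases (Wnt3). The Wnt3 stretch held none of the 4 motifs and is richer in G and C (68.9% against 53.8% for Olfm4). A match of letters is a description of the sequence and not a binding site.

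Total counts per library ranged from 13619309 to 21708721 in tissue, 15397757 to 38258472 in IECs, and 13444958 to 30029485 in IELs. Btnl2 marked the genotype in tissue and IELs, at 23.9 to 103 CPM in WT small intestine against 0.675 to 2.44 CPM in Btnl2-KO small intestine, and at 2.47 to 9.89 against 0 to 0.123 CPM in IELs. Several libraries stood apart from their labels. Among IECs, 1 jejunal Btnl2-KO library held 19.5 CPM of Btnl2 and 1 duodenal one 5.45 CPM, against 0.342 to 0.595 CPM in the other 6. The ileal bile acid-binding protein Fabp6 reached 220 CPM in that duodenal library and 484 CPM in that jejunal one, and was at 0.231 CPM in 1 library labelled ileum from Btnl2-KO mice. Among γδ IELs, jejunal Btnl2-KO replicate 3 held 32.6 CPM of Fabp6. The other jejunal γδ IEL libraries held at most 0.641 CPM (Btnl2-KO) and 4.44 CPM (WT). In small intestinal tissue, the colon enzyme Car1 was at 846 and 1624 CPM in WT replicates 2 and 3 and at most 0.610 CPM in the other 12 libraries, and the proximal factor Gata4 was at 82.7 and 15.1 CPM in WT replicates 5 and 7 and at 95.6 CPM in Btnl2-KO replicate 1, against at most 2.30 CPM elsewhere. Counts below were therefore also made without these libraries.

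Whole tissue compares the 2 organs directly. Of the 10 genes, 7 differed between colon and small intestine in WT mice: Olfm4 and Wnt3 were close to absent in the colon, Lgr5, Smoc2, Axin2, and Msi1 were lower there, and Sox9 was higher. The call needed an adjusted p below 0.05 in edgeR's quasi-likelihood test and a fold change above 1.5, and of 15162 genes tested 27.6% met it. Counted by direction, 6 of 10 were lower and 1 higher in the colon, against 15.6% and 12.0% of all genes. Their median log2 difference was -0.98, against -0.02 over all genes tested. The same 7 were called in Btnl2-KO tissue, where 30.2% of 14798 genes were called, 15.7% of the genes tested being lower and 14.4% higher in the colon, and where the median of the 10 was -1.0 against 0.02 over all genes. Olfm4 and Wnt3 passed the count filter through the small intestine alone and so had to differ. Without the 2 WT libraries holding Car1, and in each genotype without those holding Gata4, the count was again 7 of 10.

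Lgr5, the R-spondin receptor by which these stem cells are usually traced, was at 11.2, 13.3, and 13.8 CPM (lowest, median, and highest) in WT colon and at 14.2, 29.5, and 33 CPM in WT small intestine. Every colon library lay below every small intestinal one, although the lowest small intestinal library, WT replicate 1, was close to the colon range. In Btnl2-KO mice the levels were 8.06, 12, and 14 CPM in colon and 20.3, 29.5, and 32.5 CPM in small intestine. The log2 difference of colon from small intestine was -1.10 (SE 0.16, adjusted p = 5.6e-05) in WT and -1.24 (SE 0.12, adjusted p = 3.7e-07) in Btnl2-KO mice, or 2.15- and 2.37-fold lower in the colon.

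Olfm4, the secreted stem cell glycoprotein, separated the organs most widely. In WT small intestine it was at 121, 381, and 777 CPM (lowest, median, and highest), and in WT colon at 0, 0.0627, and 0.130 CPM. The 6 WT colon libraries held 8 Olfm4 counts in all, with at most 3 in one library, and 1 of them held none. Against the pooled colon level, the small intestinal mean was 6000.3-fold higher, with a 95% counting interval of 3045 to 13898. Btnl2-KO mice gave 261, 427, and 587 CPM in small intestine and 0, 0, and 0.252 CPM in colon, where 4 of 7 libraries held no count and the ratio was 5197 (2738 to 11366). The intervals cover counting error in the colon only.

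Wnt3, the Paneth cell ligand, was the other gene close to 0 in the colon. It was at 5.49, 9.08, and 12.3 CPM in WT small intestine and at 0, 0.0552, and 0.117 CPM in WT colon, with 6 counts over the 6 colon libraries. The small intestinal mean was 159-fold the pooled colon level (95% counting interval 73.1 to 433), and 102-fold (55.7 to 214) in Btnl2-KO mice, where Wnt3 was at 6.82, 8.08, and 12.1 CPM in small intestine and at 0, 0.0672, and 0.230 CPM in colon. Wnt3 moved here with the Paneth cell genes (Lyz1, Mmp7, Ang4, Itln1, Pla2g2a, Defa17, and Defa24), of which 7 of 7 were lower in WT colon with a median log2 difference of -9.07. Their summed level was 20.2 to 522 CPM in WT colon and 9213 to 29102 CPM in WT small intestine, and no gene of the list was at 0 in all colon libraries. Their part in the Wnt3 difference was not tested. In bulk tissue, fewer cells of a type and less RNA per cell cannot be told apart.

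Axin2 and Msi1 were also lower in the colon. Axin2, the Wnt feedback gene, was at 35.6, 41.9, and 45.0 CPM in WT colon and 66.8, 94.8, and 125 CPM in WT small intestine, and at 25.9, 38.6, and 45.3 CPM against 87.5, 115, and 170 CPM in Btnl2-KO mice. Msi1, the RNA-binding protein, was at 0.335, 0.988, and 1.46 CPM in WT colon against 1.63, 3.93, and 6.27 CPM in WT small intestine, and at 0.504, 0.853, and 1.36 CPM against 3.17, 3.82, and 4.74 CPM in Btnl2-KO mice. The organs overlapped in neither gene in either genotype. The log2 differences were -1.29 (SE 0.12) and -1.70 (SE 0.15) for Axin2 and -2.15 (SE 0.35) and -2.15 (SE 0.19) for Msi1 in WT and Btnl2-KO mice.

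Smoc2, the matrix protein, was at 29.7, 42.3, and 47.4 CPM in WT colon and 52.0, 73.4, and 109 CPM in WT small intestine. In Btnl2-KO mice it was at 30.4, 41.6, and 53.0 CPM against 53.4, 70.1, and 76.9 CPM. The organs did not overlap in either genotype, but the highest Btnl2-KO colon library and the lowest Btnl2-KO small intestinal library nearly met. The log2 difference was -0.86 (SE 0.16, adjusted p = 0.00049) in WT and -0.77 (SE 0.11, adjusted p = 2.4e-05) in Btnl2-KO mice.

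Sox9 was the gene of the 10 that was called higher in the colon. It was at 64.5, 82.1, and 94.3 CPM in WT colon and 37.0, 48.6, and 66.5 CPM in WT small intestine, and at 78.5, 87.1, and 111 CPM against 34.4, 47.5, and 62.3 CPM in Btnl2-KO mice. The WT ranges overlapped, since small intestinal WT replicate 1 exceeded the lowest colon library, and the Btnl2-KO ranges did not. The log2 difference was 0.69 (SE 0.13, adjusted p = 0.00045) in WT and 0.95 (SE 0.13, adjusted p = 1.2e-05) in Btnl2-KO mice.

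Ascl2, Rnf43, and Znrf3 were not called by edgeR in either genotype. Ascl2, the stem cell transcription factor, was at 1.97, 5.29, and 7.22 CPM in WT colon and 3.44, 5.13, and 7.30 CPM in WT small intestine, with a log2 difference of -0.13 (SE 0.28, adjusted p = 0.72). In Btnl2-KO mice it was at 2.76, 3.79, and 5.41 CPM against 4.62, 5.99, and 6.40 CPM, with a log2 difference of -0.53 (SE 0.16, adjusted p = 0.010) that missed the minimum fold change. It passed it by limma-voom (-0.67, adjusted p = 0.0011) and in edgeR without Btnl2-KO colon replicate 3 (-0.63, adjusted p = 0.0030) or 4 (-0.60, adjusted p = 0.0060) or Btnl2-KO small intestinal replicate 5 (-0.60, adjusted p = 0.0070). Both ubiquitin ligases differed less than 1.5-fold between the organs. Rnf43 was at 23.6, 30.4, and 36.3 CPM in WT colon and 27.5, 36.2, and 39.7 CPM in WT small intestine (log2 difference -0.22, SE 0.11, adjusted p = 0.10), and Znrf3 at 21.2, 22.2, and 23.2 CPM against 9.22, 18.4, and 22.5 CPM (0.28, SE 0.15, adjusted p = 0.16). In Btnl2-KO mice the log2 differences were -0.35 (SE 0.08, adjusted p = 0.0020) for Rnf43 and 0.38 (SE 0.13, adjusted p = 0.020) for Znrf3, both under the fold minimum.

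**Figure D1:**
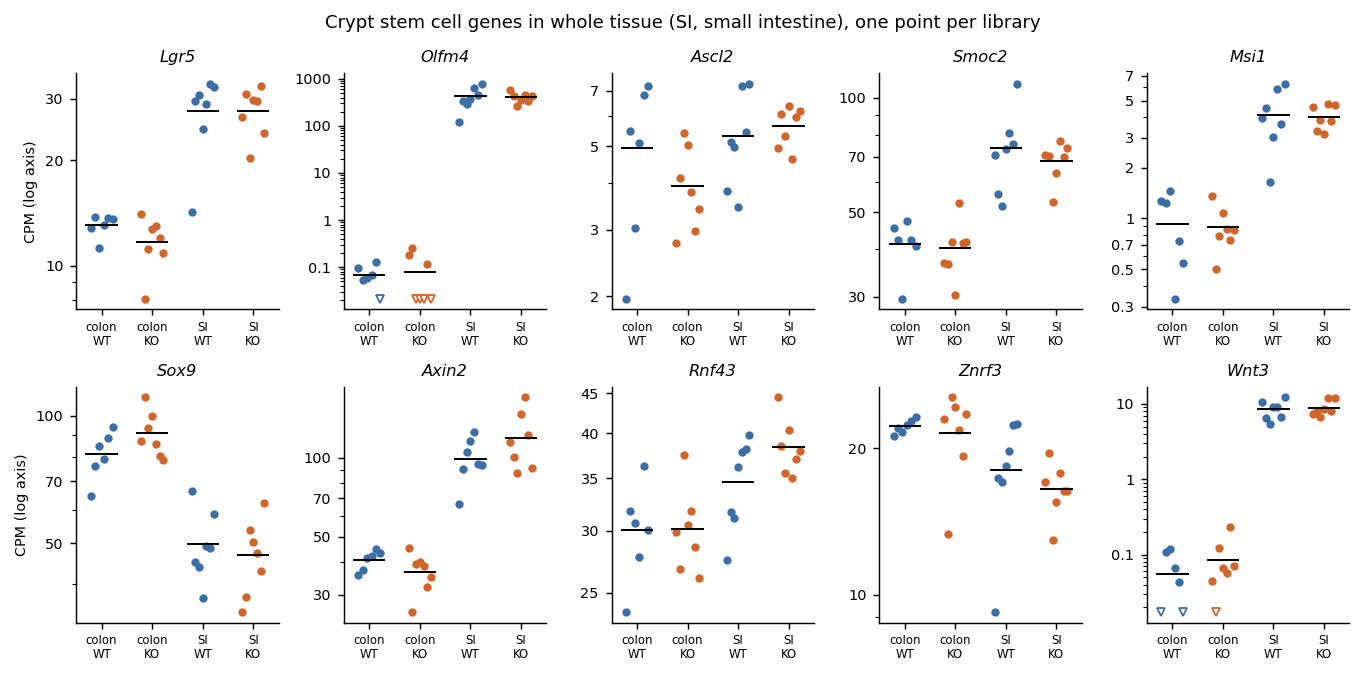
CPM of the 10 genes on log axes in whole colon and small intestine (SI) of WT (blue) and Btnl2-KO (orange) mice, 1 point per library with a line at the group mean. Open triangles are libraries with no count, drawn below the lowest plotted value. Olfm4 and Wnt3 lie under 0.3 CPM in all 13 colon libraries, Sox9 is higher in the colon, and WT and Btnl2-KO points intermix.

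The libraries at the ends of these ranges were often the same. WT small intestinal replicate 1 was the lowest of its group in Lgr5, Olfm4, Axin2, Rnf43, and Znrf3 and the highest in Sox9. Colon Btnl2-KO replicate 2 was the lowest of its group in Lgr5, Axin2, Msi1, and Znrf3 and the highest in Sox9.

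Scaled per kilobase of exon, which allows genes to be compared with each other, Olfm4 led in WT small intestine with a mean of 145 CPM per kb. Axin2 (17.9), Sox9 (12.1), and Smoc2 (10.6) followed, then Rnf43 (5.28), Ascl2 (3.28), Wnt3 (2.78), Lgr5 (2.69), and Znrf3 (2.29), and Msi1 came last with 0.71 CPM per kb. In WT colon the order of these per-kilobase levels began with Sox9 (19.7), Axin2 (7.42), Smoc2 (5.95), Rnf43 (4.58), Ascl2 (3.04), and Znrf3 (2.81), and went on to Lgr5 (1.27) and Msi1 (0.16), with Olfm4 and Wnt3 at 0.02 CPM per kb each. Lgr5 was thus below both of the ligases that its ligand restrains in the colon, and between Rnf43 and Znrf3 in the small intestine. Neighbours in this order were not tested against each other.

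Other genes of the crypt base did not move in 1 direction. Of 18 tested, 5 were higher and 3 lower in WT colon, with a median log2 difference of 0.21. Aqp4, a water channel, was higher by 5.22 on the log2 scale, and Lgr4, the widely expressed relative of Lgr5, by 0.73. Lrig1, Ephb3, and Kcne3 were the others called higher. Sp5, a Wnt-induced transcription factor, differed by -5.51, Nr2e3 by -2.36, and the receptor gene Tnfrsf19 by -1.50. In Btnl2-KO tissue 7 were higher and 4 lower.

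Among the Wnt receptors and mediators, Lrp6 (log2 difference 0.83) and Tcf7l2 (0.85) were higher and Fzd5 (-0.67) and Tcf7 (-0.64) lower in WT colon, and the other 6 of 10 were not called. Of 7 Wnt target and feedback genes tested, Nkd1 (-0.83), Apcdd1 (-1.52), Dkk2 (-1.92), and Ccnd1 (-0.94) were lower and Wif1 (1.58), a secreted Wnt inhibitor, higher. Of 7 other Wnt ligands tested only Wnt4 was called (-0.62), and of 3 R-spondins only Rspo2 (-2.48). Among 5 BMP ligands and antagonists, Grem1 was lower (-0.82) and Chrdl1 higher (0.98). In Btnl2-KO tissue the calls were 3 higher and 2 lower of 10 receptors and mediators, 1 and 2 of 7 targets, 1 and 0 of 5 ligands, 0 and 1 of 3 R-spondins, and 2 and 0 of 5 BMP genes.

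The tissue makeup moved with the comparison as well. Of 7 genes of dividing cells, 4 were lower in WT colon (median log2 difference -0.86), whereas edgeR called none of 7 in Btnl2-KO mice (median -0.15, 2 at an unadjusted p below 0.05). Of 11 pan-epithelial genes, 1 was higher and 3 lower in WT colon (median -0.31), and their summed level was 9148 to 10604 CPM in WT colon and 8440 to 16633 CPM in WT small intestine. All 8 enterocyte genes tested were lower in the colon in both genotypes, and edgeR called 0 of 5 fibroblast, 0 of 5 smooth muscle, and 0 of 4 enteric glia genes in WT mice (2, 1, and 0 at an unadjusted p below 0.05). The part of these differences in the levels of the 10 genes was not tested.

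The IEC fraction divides the small intestine by segment. In WT IECs no gene of the 10 was called between ileum and duodenum (4.42% of all genes called), jejunum and duodenum (0.32%), or ileum and jejunum (1.13%), at an unadjusted p below 0.05 for 4, 2, and 2 of them. DESeq2 called 3, 0, and 0 and limma-voom with sample weights 4, 0, and 0.

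Olfm4, the secreted stem cell protein, was at 1956, 1851, and 2515 CPM in the 3 duodenal WT libraries, at 2075, 1757, and 1349 CPM in the 3 jejunal ones, and at 1121 and 1071 CPM in the 2 ileal ones. Both ileal libraries lay below all duodenal and all jejunal ones. The log2 difference of ileum from duodenum was -0.93 (SE 0.24, unadjusted p = 0.0064, adjusted p = 0.093 over all genes).

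Smoc2 and Ascl2 had the same order. Smoc2 was at 126, 127, and 115 CPM in the duodenum, 103, 91.2, and 68.7 CPM in the jejunum, and 74.5 and 78.8 CPM in the ileum. Ascl2 was at 8.74, 9.11, and 5.74 CPM, at 6.70, 4.74, and 5.88 CPM, and at 4.27 and 4.37 CPM. The duodenum did not overlap with the ileum in either gene. The log2 differences of ileum from duodenum were -0.67 (SE 0.20, adjusted p = 0.13) for Smoc2 and -0.85 (SE 0.29, adjusted p = 0.20) for Ascl2.

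Wnt3 ran the other way. It was at 3.47, 3.05, and 2.36 CPM in the duodenum, 6.51, 5.85, and 4.29 CPM in the jejunum, and 5.76 and 5.90 CPM in the ileum. All duodenal libraries lay below all others, and jejunum and ileum overlapped. The log2 difference from the duodenum was 0.99 (SE 0.27, adjusted p = 0.11) in the ileum and 0.93 (adjusted p = 0.27) in the jejunum. The 7 Paneth cell genes had log2 differences from the duodenum above 0 in 7 of 7 in the ileum (1 called, median 0.55) and in 7 of 7 in the jejunum (0 called by edgeR, 4 at an unadjusted p below 0.05, median 0.86).

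Duodenal WT replicate 2 decided the edgeR calls between ileum and duodenum. Without it, 3 of the 10 were called by the same test: Olfm4 and Smoc2 were lower and Wnt3 higher in the ileum. That library held 40.0 CPM of the proliferation gene Mki67, against 508 and 615 CPM in the other duodenal WT libraries, and was also the lowest of the 16 in Axin2 (26.5 CPM), Sox9 (22.0 CPM), Msi1 (0.811 CPM), and Znrf3 (2.19 CPM). With the group means taken out, Znrf3 (r = 0.90, rho = 0.84), Axin2 (0.86 and 0.76), Lgr5 (0.75 and 0.74), and Msi1 (0.71 and 0.61) followed the summed level of 7 genes of dividing cells over the 16 libraries. Without the 2 libraries farthest from the median sum, r was 0.83, 0.68, 0.64, and 0.51, while for Olfm4, Smoc2, and Ascl2 r was between -0.24 and 0.30 over all 16. These correlations describe libraries that share their scaling, and no test was made of them.

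**Figure D2:**
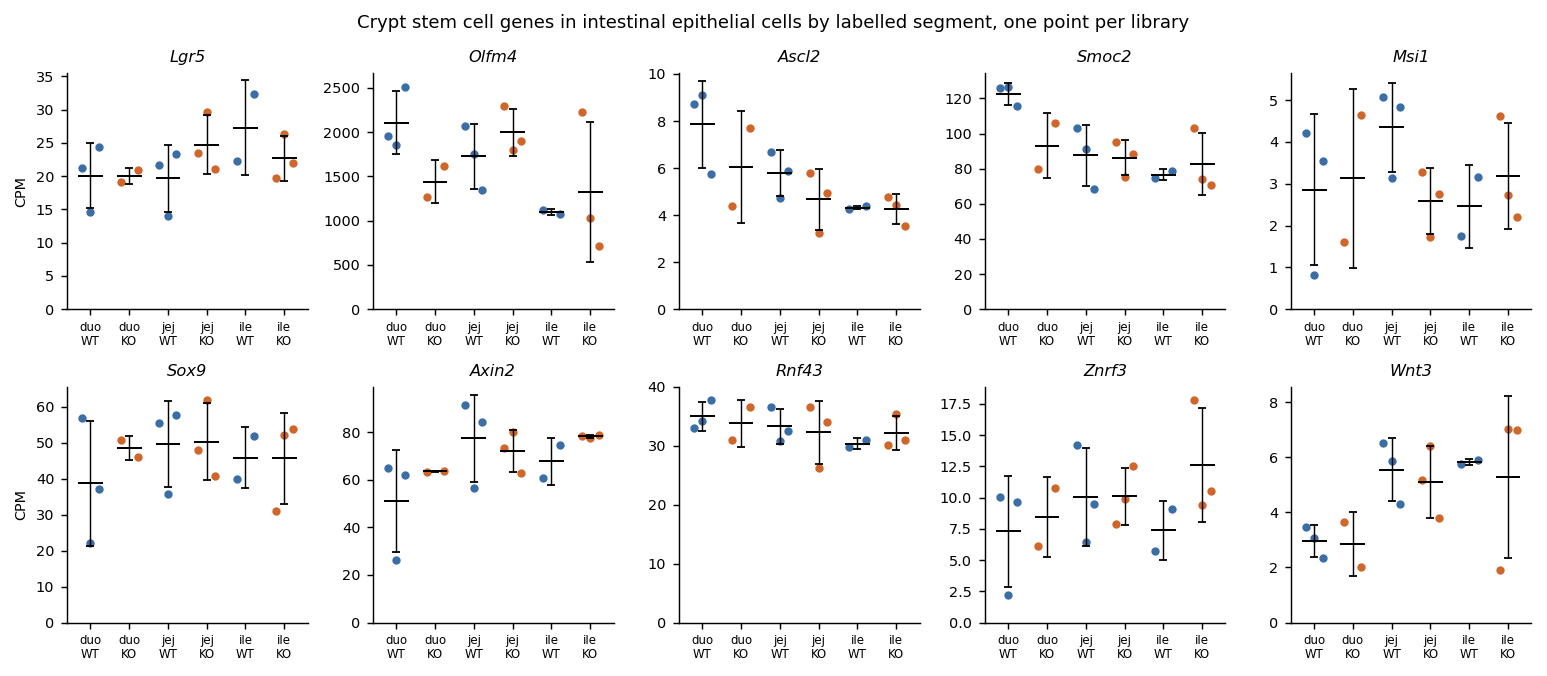
CPM of the 10 genes in IEC libraries of duodenum (duo), jejunum (jej), and ileum (ile), WT blue and Btnl2-KO orange, with the group mean and SD over 2 or 3 libraries. WT Olfm4, Smoc2, and Ascl2 are highest in the duodenum and WT Wnt3 is lowest there, and 1 duodenal WT library is the lowest of all in Axin2, Sox9, Msi1, and Znrf3.

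Lgr5 had little segment difference in WT IECs, at 21.2, 14.7, and 24.4 CPM in the duodenum, 21.7, 14, and 23.4 CPM in the jejunum, and 22.3 and 32.4 CPM in the ileum. Rnf43 was the steadiest of the 10, between 26.3 and 37.8 CPM over all 16 IEC libraries, a 1.44-fold range, and Znrf3 ranged from 2.19 to 17.8 CPM. Scaled per kilobase of exon, the duodenal WT means were 711 for Olfm4, 17.6 for Smoc2, 9.35 for Sox9, 9.27 for Axin2, 5.33 for Rnf43, 4.84 for Ascl2, 1.96 for Lgr5, 0.96 for Wnt3, 0.93 for Znrf3, and 0.49 for Msi1. The segment labels of 3 Btnl2-KO libraries go against their markers, and the WT comparisons above do not hold any of them. The library labelled ileum that lacked Fabp6 held 1.90 CPM of Wnt3, and the other ileal Btnl2-KO libraries held 7.02 and 6.97 CPM. It held 2224 CPM of Olfm4, against 1034 and 718 CPM in those 2. In both genes it lay in or below the range of the duodenal and jejunal WT libraries.

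By likeness of pattern, the 3 genes nearest to Lgr5 over the 16 IEC libraries were Cpm (r = 0.86, rho = 0.91), Nsun6 (0.80 and 0.60), and Adgrg7 (0.79 and 0.81), out of 11480 genes compared. Nearest to Olfm4 were Trpa1 (0.89 and 0.87), Cdc14b (0.88 and 0.89), and Itpripl1 (0.88 and 0.90). Over the 14 small intestinal tissue libraries and 14210 genes they were Zfp280d, Calcrl, and Mlxip for Lgr5 (r = 0.91, 0.91, and 0.90) and Tbc1d31, Seh1l, and Slfn9 for Olfm4 (0.97, 0.96, and 0.95). Those of Lgr5 in tissue rested on 2 libraries, without which r fell to 0.63, 0.67, and 0.49, and no other fell below 0.77. None of these genes appeared in both fractions for the same gene.

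γδ IELs are lymphocytes, and the 10 genes were read in them beside the epithelial genes that the sorted libraries also held. The summed level of 11 pan-epithelial genes was 576 to 7339 CPM over the 22 libraries, with none of the genes at 0 throughout a group. Msi1 had no count in 12 of 22 libraries and never more than 0.261 CPM, and it was not tested.

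The members fell apart by their spread. Sox9 varied 95.1-fold between its lowest and highest library, Ascl2 94.2-fold, Olfm4 44.7-fold, and Smoc2 38.1-fold, and Lgr5 and Wnt3 each had 1 library at 0. By contrast Rnf43 stayed between 8.27 and 18.2 CPM (2.19-fold), Znrf3 between 6.78 and 15.4 CPM (2.28-fold), and Axin2 between 1.17 and 6.94 CPM (5.95-fold). Epcam, the epithelial adhesion gene, varied 7.75-fold. The lowest values of Sox9, Ascl2, Olfm4, and Smoc2 (5, 3, 244, and 39 counts) all came from jejunal Btnl2-KO replicate 2, which also held no count of Lgr5 and had the lowest pan-epithelial (576 CPM) and Paneth cell (80.1 CPM) sums. Over the other 21 libraries the range was 22.9-fold for Sox9, 29.0-fold for Ascl2, 35.5-fold for Olfm4, 11.3-fold for Smoc2, and 68.1-fold for Lgr5, against 2.19-fold for Rnf43, 2.11-fold for Znrf3, 5.95-fold for Axin2, and 5.47-fold for Epcam. The lowest of these 21 values was 0.122 CPM for Lgr5 and 0.373 CPM (8 counts) for Ascl2. Counts this low can widen a range by themselves.

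With group means taken out, the members also differed in how they followed the pan-epithelial sum over the 22 libraries. Smoc2 (r = 0.93, rho = 0.86), Sox9 (0.88 and 0.84), Olfm4 (0.86 and 0.74), Wnt3 (0.85 and 0.77), and Ascl2 (0.83 and 0.82) followed it, and Lgr5 did so less closely (0.69 and 0.65). Axin2 (0.19 and 0.22), Znrf3 (0.09 and 0.20), and Rnf43 (0.40 and 0.31) had the lowest values. Without the 2 libraries farthest from the median sum, r was between 0.79 and 0.90 for Smoc2, Sox9, Olfm4, Wnt3, Ascl2, and Lgr5, and 0.34, 0.24, and 0.56 for Axin2, Znrf3, and Rnf43. The points share their library and scaling, and no test was made.

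**Figure D3:**
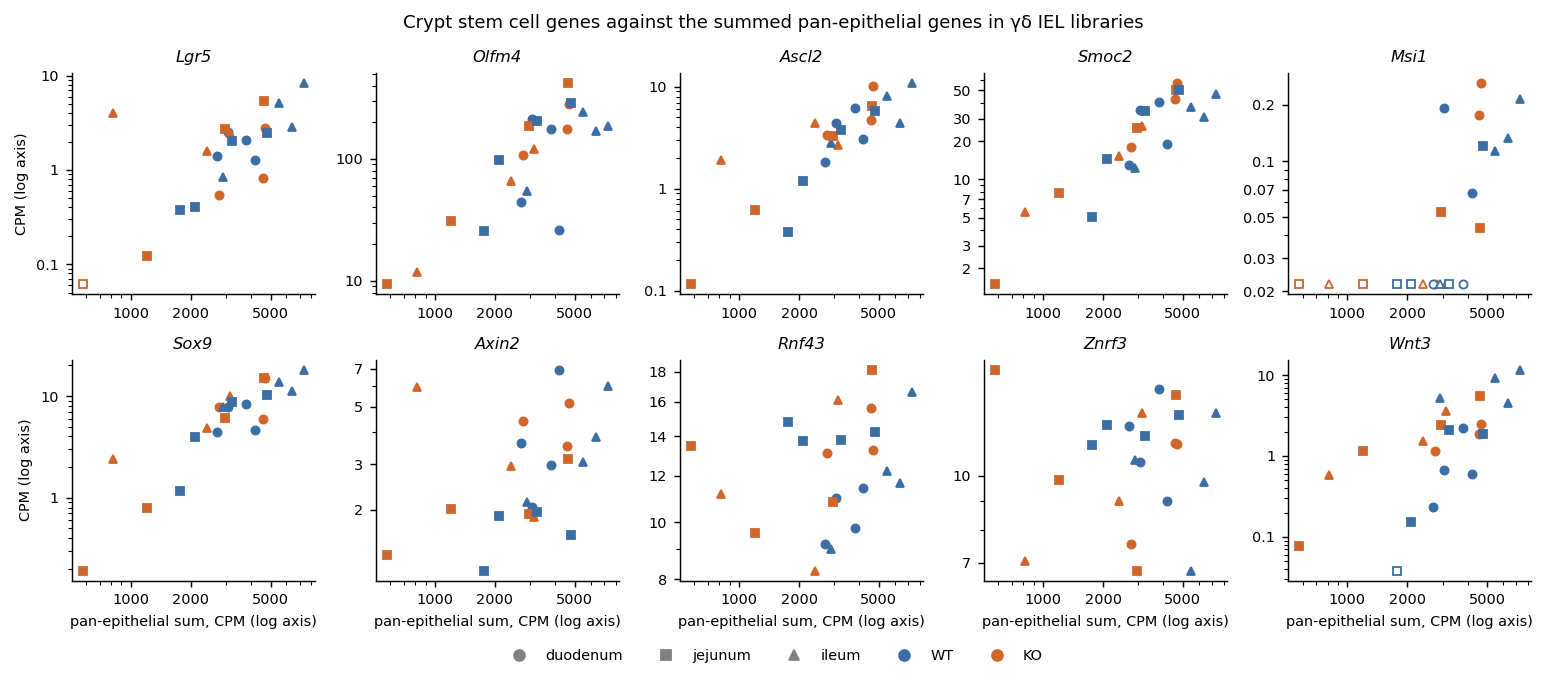
CPM of the 10 genes (vertical, log axis) against the summed CPM of 11 pan-epithelial genes (horizontal, log axis) in the 22 γδ IEL libraries, by segment (shape) and genotype (colour). Open symbols are libraries with no count, drawn below the lowest value. Smoc2, Sox9, Olfm4, Ascl2, and Wnt3 climb with the sum and Rnf43 and Znrf3 stay within 2.3-fold.

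Wnt3 and Axin2 were the members called between segments in WT γδ IELs. Wnt3 was at 0.606, 2.23, 0.670, and 0.236 CPM in the 4 duodenal libraries, at 0.153, 1.85, 0, and 2.09 CPM in the jejunal ones, and at 5.24, 11.7, 4.47, and 9.21 CPM in the ileal ones. All ileal libraries lay above all others, and duodenum and jejunum overlapped. The log2 difference of ileum was 2.98 (SE 0.57, adjusted p = 0.017) from duodenum and 2.89 (SE 0.86, adjusted p = 0.027) from jejunum. It was the only one of 9 members tested that was called between ileum and duodenum, where 2.16% of all genes were called. The call against the duodenum was lost without duodenal replicate 1 (adjusted p = 0.059) or ileal replicate 4 (0.057), and that against the jejunum without ileal replicate 2 (0.082) or 4 (0.056) or jejunal replicate 1 (0.059), with log2 differences that stayed between 2.55 and 2.89 in these edgeR fits. Both calls were also lost in one fit of all γδ IEL libraries (SE 1.02, adjusted p = 0.28, and SE 1.01, adjusted p = 0.057).

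Paneth cell genes were high in the same libraries. Of the 7, all were higher in ileum than duodenum (4 called, median log2 difference 2.74) and higher than in jejunum (7 called, median 2.77), and their summed level was 16485 to 63783 CPM in ileal, 3862 to 14759 CPM in duodenal, and 1276 to 13733 CPM in jejunal WT libraries. Goblet cell genes were called higher in 3 of 7 and 7 of 7. The pan-epithelial genes were called higher in 1 of 11 against the duodenum, and in 4, with 1 lower, against the jejunum. With the pan-epithelial level as a covariate, Wnt3 was higher in the ileum by 2.56 (SE 0.54, adjusted p = 0.026) than in the duodenum and by 2.21 (SE 0.57, adjusted p = 0.012) than in the jejunum. The part of the Paneth cell genes was not tested. Sox9, the other member past an unadjusted p of 0.05 against the duodenum, was at 7.81, 18.2, 11.3, and 13.8 CPM in ileal and 4.65, 8.33, 7.84, and 4.40 CPM in duodenal libraries (log2 difference 1.01, adjusted p = 0.16).

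Axin2 was low in the jejunum. The 4 jejunal WT libraries were at 1.89, 1.60, 1.17, and 1.96 CPM, the duodenal ones at 6.94, 2.97, 2.06, and 3.61 CPM, and the ileal ones at 2.15, 6.02, 3.80, and 3.05 CPM. Every jejunal library lay below every duodenal and ileal one. The log2 difference of jejunum from duodenum was -1.24 (SE 0.39, adjusted p = 0.032), the only call of 9 there beside 23.3% of all genes, and that of ileum from jejunum was 1.19 (SE 0.36, adjusted p = 0.028), one of 2 calls beside 21.7% of all genes. The share of members was below the background in the first of these comparisons and about equal to it in the second. With the pan-epithelial covariate neither difference was called (-1.13, adjusted p = 0.051, and 0.76, adjusted p = 0.17). The edgeR call against the duodenum was also lost without duodenal replicate 1 (-0.81, adjusted p = 0.11), duodenal replicate 4 (adjusted p = 0.060), or any 1 jejunal library (adjusted p between 0.059 and 0.079). That of ileum against jejunum was lost without ileal replicate 2 (0.87, adjusted p = 0.094), ileal replicate 3 (adjusted p = 0.066), or any 1 jejunal library (adjusted p between 0.054 and 0.075). Rnf43 was at 13.8, 14.2, 14.8, and 13.8 CPM in the jejunum and 11.4, 9.77, 11, and 9.19 CPM in the duodenum, without overlap, and its log2 difference of 0.43 (adjusted p = 0.041) missed the fold minimum.

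**Figure D4:**
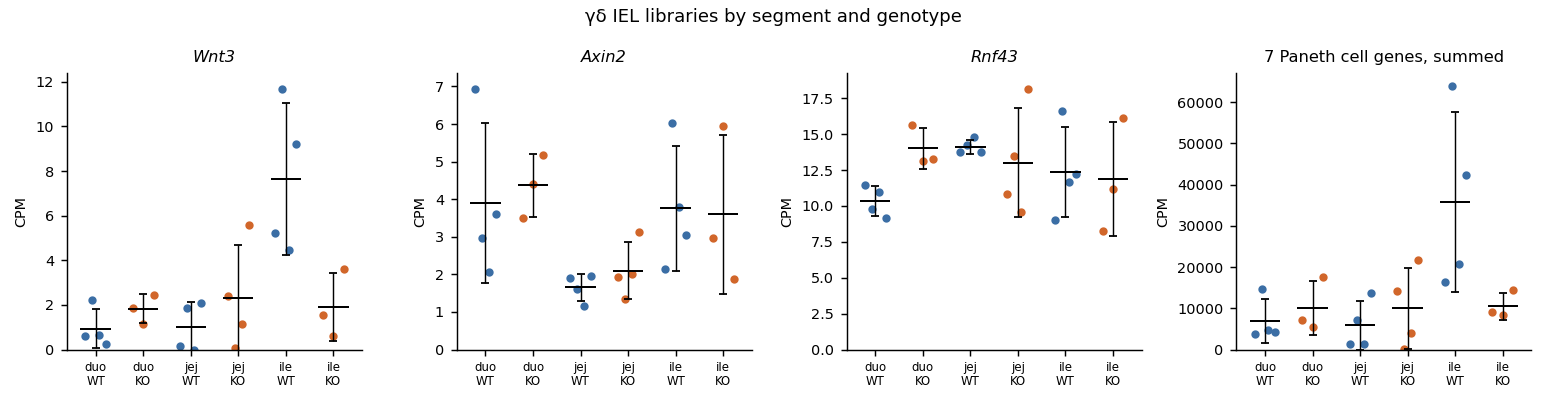
CPM of Wnt3, Axin2, and Rnf43 and the summed CPM of 7 Paneth cell genes in γδ IEL libraries by segment and genotype, with group mean and SD (3 or 4 libraries, bars ended at 0 where they would pass it). Among WT libraries the ileal ones are the highest in Wnt3 and in the Paneth cell sum and the jejunal ones the lowest in Axin2, and Btnl2-KO libraries of other segments reach into these ranges, with a jejunal one at 5.57 CPM of Wnt3.

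In the wider lists, Wnt11 (log2 difference 1.75) and Ccnd1 (1.67), a cell cycle gene among the Wnt targets, were called higher in ileal than duodenal WT γδ IELs, and Cd44 (0.66) was the only one of 18 other crypt base genes. Against the jejunum, Ephb3 (1.68), Mex3a (1.89), and Kcne3 (1.70) were called higher in the ileum. The T cell factor Tcf7 was higher in the jejunum than the duodenum (1.31) and lower in the ileum than the jejunum (-0.83), and the receptor Fzd5 moved the opposite way (-1.12 and 1.21). R-spondin and BMP genes had too few counts to test in this fraction. In WT IECs, 0 of 18 other crypt base genes were called between any 2 segments by edgeR, at an unadjusted p below 0.05 for 3 (ileum and duodenum), 2 (jejunum and duodenum), and 2 (ileum and jejunum).

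None of the 10 genes was called by edgeR between Btnl2-KO and WT mice in any of the 8 comparisons. The share of all genes called was 0.0202% in small intestinal and 0.0269% in colon tissue, 0.0%, 0.0%, and 0.00774% in duodenal, jejunal, and ileal IECs, and 0.00789%, 0.00794%, and 0.0% in duodenal, jejunal, and ileal γδ IELs. Where that share was 0.0%, the disrupted gene Btnl2 was itself not called, although its Btnl2-KO and WT libraries did not overlap. Its Btnl2-KO and WT means were 2.89 and 51.3 CPM in duodenal and 6.89 and 41.9 CPM in jejunal IECs. In ileal γδ IELs they were 0.0412 and 2.98 CPM. A lack of calls there does not show a lack of difference. At an unadjusted p below 0.05 in edgeR there were 0 members in the 5 tissue and IEC comparisons, 1 in duodenal, 0 in jejunal, and 2 in ileal γδ IELs. DESeq2 and limma-voom called 0 members in 7 of the 8 comparisons, and 1 and 3 in ileal γδ IELs.

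Tissue gave the narrowest values. In small intestine the 10 log2 differences of Btnl2-KO from WT lay between -0.13 (Znrf3) and 0.26 (Axin2), with standard errors of 0.08 to 0.30, and those of the 8 genes tested in colon lay between -0.34 (Ascl2) and 0.16 (Sox9). The medians were -0.02 and -0.06. Olfm4 and Wnt3 were too low in the colon to test. WT and Btnl2-KO ranges overlapped for all 10 genes in both organs.

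Among IECs, differences lay between -0.53 and 0.34 in the duodenum, -0.73 and 0.32 in the jejunum, and -0.26 and 0.78 in the ileum. With 2 or 3 libraries a group, the standard errors reached 0.72. For Lgr5 the Btnl2-KO libraries were at 19.2 and 20.9 CPM in the duodenum, 23.5, 29.7, and 21.2 CPM in the jejunum, and 19.7, 26.4, and 22.0 CPM in the ileum, overlapping the WT range in each segment. In the duodenum Olfm4 was at 1270.4 and 1615 CPM in Btnl2-KO libraries, below the 3 WT libraries at 1956, 1851, and 2515 CPM (log2 difference -0.53, SE 0.30, adjusted p = 1.0), and Smoc2 was likewise below (-0.38). The library at 1270.4 CPM, also the lower in Smoc2, was the one labelled duodenum that held 220 CPM of Fabp6. Axin2 and Znrf3 did not overlap between genotypes in the ileum. How many of all genes were without overlap in groups of 2 or 3 libraries was not counted. The separations here and in the duodenum are therefore not read as a result about these genes. Znrf3 was at 17.8, 9.38, and 10.6 CPM in Btnl2-KO and 5.69 and 9.07 CPM in WT libraries (log2 difference 0.78, SE 0.37, adjusted p = 0.90), and Axin2 differed by 0.22. The Znrf3 value of 17.8 CPM came from the library labelled ileum that lacked Fabp6. No member was called when the Btnl2-KO library that goes against its label was left out of each segment.

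Ileal γδ IELs held the largest differences. Wnt3 was at 1.54, 0.588, and 3.59 CPM in Btnl2-KO libraries against 5.24, 11.7, 4.47, and 9.21 CPM in WT ones. The 2 groups did not overlap, and the log2 difference was -1.97 (SE 0.60, unadjusted p = 0.0076, adjusted p = 0.44). With the pan-epithelial level as a covariate it was -0.93 (SE 0.52, adjusted p = 0.56). With DESeq2, the study called Wnt3 and many other genes lower in ileal Btnl2-KO γδ IELs from these libraries. The low p of Wnt3 is therefore not independent evidence. In edgeR no gene was called in this comparison. That differs from the published result, and the cause of the difference was not tested. Sox9 was at 4.88, 2.42, and 9.93 CPM against 7.81, 18.2, 11.3, and 13.8 CPM (-1.13, unadjusted p = 0.034).

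In the same comparison Olfm4 differed by -1.30, Ascl2 by -1.10, Smoc2 by -1.0, and Lgr5 by -0.63, and Axin2, Rnf43, and Znrf3 by -0.03, -0.04, and -0.03 on the log2 scale, none of them called by edgeR. By limma-voom Wnt3 (-2.01, adjusted p = 0.046), Olfm4 (-1.49, adjusted p = 0.038), and Sox9 (-1.33, adjusted p = 0.037) were called, and by DESeq2 Wnt3 was (-2.01, adjusted p = 0.033). Epithelial genes were lower in the same libraries, with a median log2 difference of -1.27 over 11 pan-epithelial genes (7 at an unadjusted p below 0.05), -1.70 over 7 Paneth cell genes (7), and -1.55 over 7 goblet cell genes (6), while 8 γδ IEL genes had a median of 0.35. The pan-epithelial sum was 818, 2395, and 3120.5 CPM in the Btnl2-KO libraries and 2898 to 7339 CPM in the WT ones. In the duodenum the difference of Wnt3 was 0.93 (SE 0.64) and in the jejunum 1.18 (SE 1.31), neither of them called. Rnf43 was at 15.6, 13.1, and 13.3 CPM in duodenal Btnl2-KO and 11.4, 9.77, 11, and 9.19 CPM in duodenal WT γδ IELs, without overlap (log2 difference 0.44, SE 0.19, unadjusted p = 0.040, adjusted p = 0.997).

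**Figure D5:**
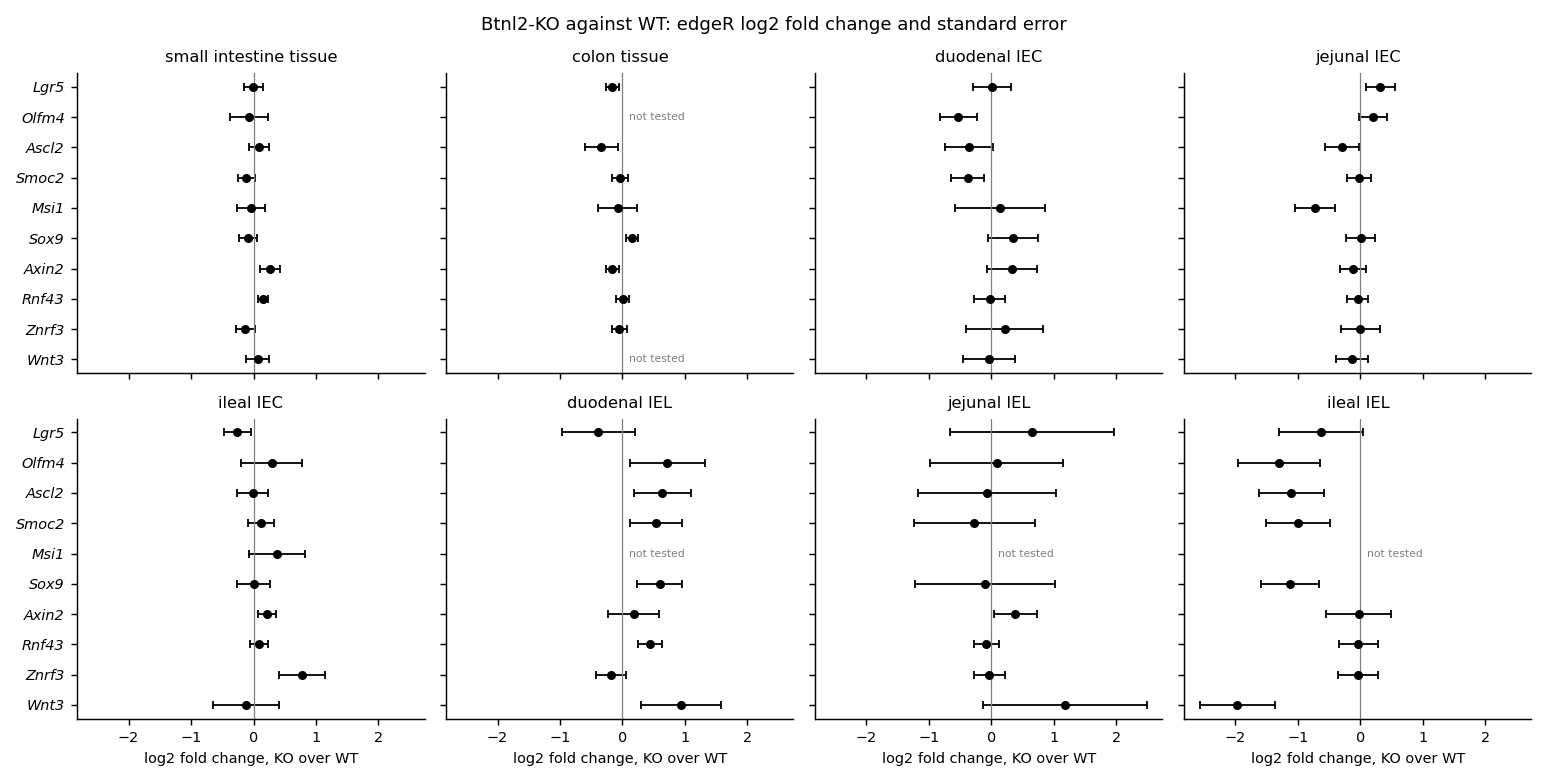
Log2 fold change of Btnl2-KO over WT for the 10 genes in each of the 8 comparisons, with bars of 1 standard error from edgeR. Tissue values lie within 0.35 of 0, and in ileal γδ IELs Wnt3, Olfm4, Sox9, Ascl2, and Smoc2 lie at or below -1.0 without being called by edgeR (DESeq2 called Wnt3, and limma-voom Wnt3, Olfm4, and Sox9).

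Whether genotype acted differently by place was tested with an interaction term. No member was called between colon and small intestine (0.0193% of all genes called), between ileal and duodenal γδ IELs (0.0%), or between ileal and duodenal IECs (0.0%). In edgeR no member had an unadjusted p below 0.05 in any of the 3, and DESeq2 and limma-voom called 0. The values nearest to it were Axin2 in tissue (log2 -0.41, SE 0.20, unadjusted p = 0.054, adjusted p = 0.39) and Wnt3 in γδ IELs (log2 -2.93, SE 1.5, unadjusted p = 0.065, adjusted p = 0.71).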

How the data were processed

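Bulk RNA was sequenced from whole tissue, IECs, and γδ IELs, and each library took its genotype, segment, and fraction from the sample labels. The authors aligned the reads in ArrayStudio, to their own mouse genome (GRCm38 in the labels), and deposited expected counts per gene, estimated with RSEM from sense-strand exon reads and not normalized. The labels name a stranded mRNA kit and the paper another library kit. The single-cell files were not used, and 1 column of the γδ IEL table that matches no sample was left out. Of 24475 gene identifiers, 24375 had a symbol and 100 did not, and all were kept.

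Expected counts were rounded (5.00, 14.9, and 17.2% of γδ IEL, IEC, and tissue values were not whole) and tested with edgeR 4.0.16 in R 4.3.3 (quasi-likelihood test, TMM), in the libraries of the 2 groups compared, on genes that reached 10 counts in a number of libraries equal to the smaller group. A call needed a Benjamini-Hochberg adjusted p below 0.05 over all genes tested and a fold change above 1.5, or the adjusted p alone for interactions. CPM uses TMM-scaled library sizes of a whole table, per-kilobase levels the union of GENCODE vM21 exons, and correlations log2(CPM + 1). No replicate pair agreed within sampling noise (chi-square per degree of freedom at least 5.08). The labels do not say whether libraries of a group are separate animals, or whether tissues share mice, so p-values measure the spread between libraries. The paper calls its samples biological replicates and describes the small intestine as cut into segments. Segments may therefore share mice, a pairing that the tests between segments did not use.

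The alternatives were DESeq2 1.42.0, RLE size factors, no filter, filterByExpr, one fit per table, limma-voom (limma 3.58.1) with sample quality weights, no fold minimum, each library left out, and, for γδ IELs and tissue, the pan-epithelial level as a covariate. Others, added after seeing the data, left out libraries that went against their labels or, for ranges, the γδ IEL library lowest in epithelial genes. The fits were tested on simulated counts with known fold changes and the same fixed dispersion for every gene. That does not show how they perform at the spread of the real libraries. The 10 genes, the other gene lists, and the rules were chosen with earlier results of these data known. Named with values were the 10 genes, Btnl2, listed markers, and, for Lgr5 and Olfm4, the 3 genes with the most similar log2 CPM.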

Additional observations from a re-analysis of the deposited data

Results flagged for a closer look

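In 80 checks of groups of 4 to 7 libraries, the lowest or highest library stood apart from its group by Dixon's gap criterion at 95% in 2 cases, and chance gives about 1 in 20. Znrf3 was at 9.22 CPM in replicate 1 of WT small intestinal tissue, against 17.0 to 22.5 CPM in the other 6 libraries, and the gap was 0.592 of the range. Msi1 was at 0.121 CPM (4 counts) in replicate 2 of jejunal WT γδ IELs, and the other 3 libraries held no count.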

How the results depend on the processing

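The count of the 10 genes called between colon and small intestine stayed at 7 in WT tissue under every alternative run and at 7 to 10 in Btnl2-KO tissue. Between ileum and duodenum in WT IECs edgeR called 0, DESeq2 3, and limma-voom 4, and leaving out 1 library gave 0 to 3. Between ileum and duodenum in WT γδ IELs the count was 1, with 2 by DESeq2, 0 in one fit of all libraries, and 0 to 2 with 1 library left out (0 without duodenal replicate 1 or ileal replicate 4, 2 without ileal replicate 1). Between jejunum and duodenum it was 1, with 2 without a fold minimum, 0 with the pan-epithelial covariate, and 0 to 1 with 1 library left out (0 without duodenal replicate 1 or 4 or any one jejunal library). Between ileum and jejunum it was 2, with 3 by DESeq2 (Lgr5 added, adjusted p = 0.044), 0 in one fit, 5 by limma-voom, and 0 to 3 with 1 library left out (0 without ileal replicate 2 or jejunal replicate 1, and 3 without ileal replicate 1). With the covariate, Olfm4 and Smoc2 turned to log2 differences of -0.93 (adjusted p = 0.038) and -0.72 (adjusted p = 0.030) between ileum and jejunum. For Btnl2-KO against WT the count was 0 except in ileal γδ IELs, with 1 by DESeq2 (Wnt3, adjusted p = 0.033) and 3 by limma-voom (Wnt3, Olfm4, and Sox9). The cause of these changes was not tested. Over all members and settings, 3165 values kept their direction and their side of the threshold, 29 passed it only under the alternative, 22 no longer passed it, and 2 reversed. No paired analysis was possible because the labels give the groups no shared replicate numbers. IECs and γδ IELs had 2 to 4 libraries a group. Olfm4 and Wnt3 in colon held at most 4 counts in a library, and Msi1 in γδ IELs at most 5. Small differences were not detectable with these group sizes and counts, and a large one could also be missed. In ileal γδ IELs edgeR did not call Btnl2, at 0 to 0.123 CPM in Btnl2-KO and 2.47 to 3.58 CPM in WT libraries.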
